A study of Mus musculus with 19 samples.

Results

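A set of 10 homeobox genes known from patterning of the hindbrain, the neighbouring midbrain and the dorsal neural tube was followed across drug-resistant and vehicle-treated mouse medulloblastomas. They were Uncx, En1, En2, Otx2, Lhx1, Lhx9, Meis1, Meis2, Pax3 and Barhl2, taken as every probe set whose annotation names one of these symbols and no other. The list held 10 genes with 21 probe sets, of 18193 genes on the array that had a probe set of a single symbol. It was drawn up with the differences between resistant and vehicle tumours on these same arrays known, and Uncx was selected on its signal in that comparison, where it stood high. Differences from vehicle are therefore given for these genes as descriptions without a test, and Uncx was tested in no comparison between groups. Tests of correlation across resistant tumours and a check for outlying tumours within a dose did include Uncx.

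Homeobox genes encode transcription factors that bind DNA through a conserved helix-turn-helix domain, and in the embryonic brain their overlapping domains mark out position along the body axis and from back to belly. Otx2 marks the forebrain and midbrain up to the border with the hindbrain, the engrailed genes En1 and En2 straddle that border, and cells of the rhombic lip behind it give rise to the granule neurons of the cerebellum. Medulloblastoma driven by Hedgehog signalling arises from the precursors of those granule neurons, in which Ptch1 normally restrains the signal transducer Smoothened.

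Each of 19 tumours was measured on 1 Affymetrix array. There were 8 tumours from mice given NVP-LDE225, a Smoothened antagonist, at 160 mg/kg, 8 from mice given it at 40 mg/kg and 3 from mice given vehicle. The labels call all 16 drug-treated tumours resistant and the vehicle tumours sensitive, so treatment and resistance form a single contrast and cannot be told apart. All groups shared the tumour genotype Ptch+/-p53-/- and the host, nu/nu nude mice, which lack mature T cells and carried the tumour under the skin of the flank. The graft cells were dissociated from tumours of a transgenic line, and the labels do not say how many donor tumours there were, how long the mice were dosed, or that each array holds a separate animal. P-values thus measure the spread between these arrays, which may be partly technical. For tumours 6 and 7 of the 160 mg/kg group the source name says resistant where that of the other drug-treated tumours says treated, and none was moved out of its dose group.

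Signals are MAS5 values on a linear scale, and the array medians lay between 32.7 and 49.7. How precise a value is depends on the few arrays per group. Differences are given on the scale of log2(signal + 2.5), which understates the change of dim genes. The array of vehicle tumour 3 and that of 160 mg/kg tumour 2 were the least like the rest, with a mean correlation of 0.93 with the other arrays for each, against 0.94 to 0.95 for the remaining arrays. All 12 markers of medulloblastoma and granule neuron precursors passed the filter on dim probe sets, but in 160 mg/kg tumour 2 the granule lineage factor Atoh1 was at 22.5 and its downstream gene Barhl1 at 32.7. The lowest vehicle signals of these were 1196 for Atoh1 and 608.4 for Barhl1. Of 13454 genes that passed the filter, 5.29% were called between resistant and vehicle tumours, at a Benjamini-Hochberg adjusted p under 0.05 in limma. The share was 4.89% for 160 mg/kg against vehicle and 2.55% for 40 mg/kg against vehicle. It was 0% for 160 against 40 mg/kg, where 997 genes had an unadjusted p under 0.05.

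Of the 10 genes, 9 had a probe set that exceeded the 40th percentile of its array on at least 3 arrays, with 15 such probe sets in all. Meis2 did not, on any of its 4 probe sets or on any array. Uncx passed the filter through resistant tumours alone, since 14 of 16 resistant tumours and 0 of 3 vehicle tumours exceeded the percentile. A gene with several probe sets is represented by the one that passed with the highest mean. The plot of signals by group shows every tumour.

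**Figure D1:**
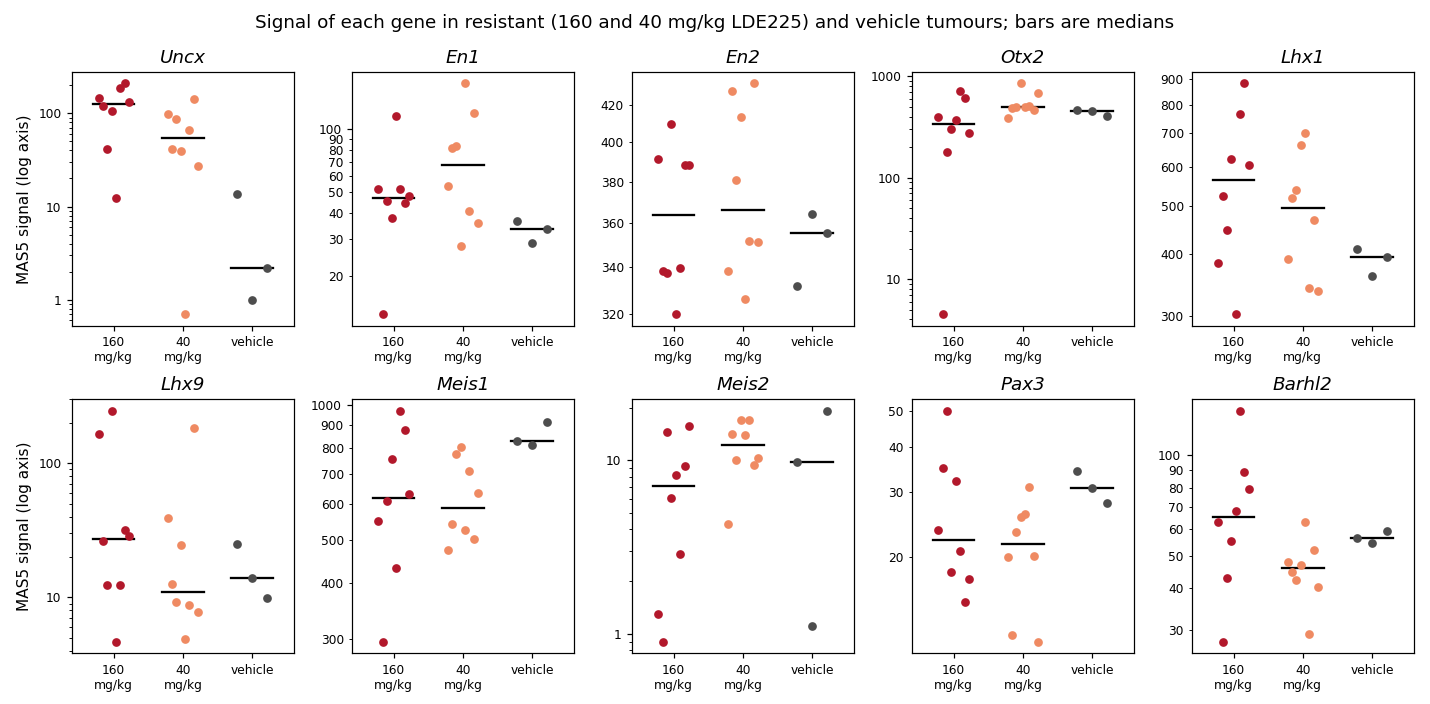
MAS5 signal (log axis, a separate range for each gene) of the 10 homeobox genes in 8 tumours at 160 mg/kg, 8 at 40 mg/kg and 3 vehicle tumours, with 1 point per tumour and a bar at the group median. Uncx stands above all vehicle tumours in 14 of 16 resistant tumours, En2 spans a narrow range in every group, and 160 mg/kg tumour 2 is the low point of Otx2 at 4.5.

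Sequence is shown for Uncx and Otx2, because both were among the 3 genes of widest spread and have a window with a core homeobox motif. The windows come from RefSeq in build GRCm38.p6 and run from 250 bases before a transcript start to 50 after it, written 5′ to 3′ in the direction of the gene. The Uncx window lies at chr5:139543648-139543947 on the + strand, and the Otx2 window, 1 of 4 listed for that gene, at chr14:48665060-48665359 on the - strand. Capitals mark TAATTA, the core that many homeodomains bind and which reads the same on both strands, and TAATCC, the core bound by Otx-type homeodomains, which reads GGATTA on the other strand.
Uncx: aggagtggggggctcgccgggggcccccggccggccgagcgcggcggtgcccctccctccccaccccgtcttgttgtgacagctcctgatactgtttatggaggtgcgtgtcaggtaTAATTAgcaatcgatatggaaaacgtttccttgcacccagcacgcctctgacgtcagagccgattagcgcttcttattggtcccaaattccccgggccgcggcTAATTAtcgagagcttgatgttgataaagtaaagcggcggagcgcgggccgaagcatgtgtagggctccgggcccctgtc
Otx2: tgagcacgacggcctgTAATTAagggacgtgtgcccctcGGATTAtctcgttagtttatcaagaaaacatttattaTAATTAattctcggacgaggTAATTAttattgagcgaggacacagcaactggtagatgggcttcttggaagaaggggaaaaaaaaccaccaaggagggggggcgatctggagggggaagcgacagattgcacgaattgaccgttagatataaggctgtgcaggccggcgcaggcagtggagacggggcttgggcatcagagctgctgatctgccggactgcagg
TAATTA stands at positions 118 and 221 of the Uncx window and at 17, 77 and 97 of the Otx2 window, counted from the first printed base, and TAATCC stands once in the Otx2 window, reversed, at 40. Of 32851 promoter windows of this length, 5.29% hold TAATTA and 7.06% hold TAATCC on either strand. The table listed 11 windows for 8 of the 10 genes, and the windows of En1, Lhx1, Lhx9, Meis1, Meis2 and Barhl2 held neither motif. A match describes the letters only and says nothing of binding.

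Uncx is a paired-type homeobox gene needed for the vertebral elements that form from the caudal part of each somite, and it is also expressed in neurons of the midbrain, hindbrain and spinal cord. Its signal ran from 12.4 through a median of 126.2 to 209.0 in the 160 mg/kg tumours and from 0.7 through 54.1 to 140.7 in the 40 mg/kg tumours. The vehicle tumours had 13.5, 1.0 and 2.2. All but tumour 5 of each dose lay above every vehicle tumour, and tumour 5 at 40 mg/kg lay below them all. Uncx averaged 119 ± 66.7 (SD, n = 8) in the 160 mg/kg tumours and 62.5 ± 44.6 (SD, n = 8) in the 40 mg/kg tumours, against 5.57 ± 6.90 in vehicle tumours (SD, n = 3).

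On the log2 scale Uncx was higher than vehicle by 3.90 (SE 0.89) at 160 mg/kg and by 2.80 (SE 0.89) at 40 mg/kg. Because the vehicle signals lay near the pseudocount, the size depends on it: over both doses the difference was 3.35 with a pseudocount of 2.5, 2.42 with 10 and 3.76 with 1. Between doses, 160 minus 40 mg/kg gave 1.10 (SE 0.66), and without 40 mg/kg tumour 5 it gave 0.56. Over all 31 alternative settings this difference ran from 0.56 to 1.49. In bulk tumours, fewer cells of a type and less RNA per cell cannot be told apart, for this gene and for all that follow.

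Sums of neuron markers were also higher in resistant than in vehicle tumours. The summed signal of 11 neuron markers, among them Stmn2, Dcx and Rbfox3, ran from 6897 to 13540 at 160 mg/kg and from 6319 to 12820 at 40 mg/kg, against 4399 to 5392 in vehicle tumours. The sum of 12 medulloblastoma and granule neuron precursor markers ran from 13670 to 22290 at 160 mg/kg. At 40 mg/kg it ran from 15540 to 19640, against 11130 to 12320 in vehicle tumours. Both sums exceeded all vehicle tumours in 16 of 16 resistant tumours. Single members of the lists did not all move that way. Of the neuron list, Dcx, Gap43 and Map2 lay above all vehicle tumours in every resistant tumour. Stmn2, Rtn1, Snap25, Syt1, Tubb3, Rbfox3 and Nefm overlapped the vehicle tumours, and Nefl did not pass the filter. Of the medulloblastoma and precursor list, Neurod1, Nhlh2, Sox11 and Cntn2 lay above all vehicle tumours in every resistant tumour. Zic1 was above them all in 15 of 16 resistant tumours. Atoh1 was below them all in 13 and above in 1, and Barhl1 below in 12 and above in 3. Zic2, Gli1, Mycn, Pax6 and Nhlh1 overlapped the vehicle tumours. The part of these markers in the Uncx difference was not tested. In the tumours lowest in Uncx the neuron sum was 6897, the lowest of its dose group, for 160 mg/kg tumour 5, but 12820, the highest of its dose group, for 40 mg/kg tumour 5.

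En1 and En2 are the mouse relatives of the fly gene engrailed, and both act in the development of the midbrain and cerebellum. En1 ran from 13.1 through a median of 46.8 to 115.7 at 160 mg/kg and from 27.6 through 67.6 to 165.4 at 40 mg/kg. The vehicle tumours had 36.3, 28.8 and 33.5. Of 16 resistant tumours 13 lay above all vehicle tumours and 2 below, so the groups overlapped, and the highest En1 of each dose group was in tumour 5, the tumour lowest in Uncx. The log2 difference was 0.42 (SE 0.48) for 160 mg/kg minus vehicle and 0.93 (SE 0.48) for 40 mg/kg minus vehicle.

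En2 was the steadiest of the genes. Its signal ran from 319.8 through a median of 363.8 to 409.7 at 160 mg/kg and from 326.1 through 366.3 to 431.7 at 40 mg/kg, against 331.8, 364.1 and 355.4 in vehicle tumours. The 3 groups overlapped almost wholly, and the log2 difference from vehicle was 0.05 (SE 0.11) at 160 mg/kg and 0.10 (SE 0.11) at 40 mg/kg. Its SD among tumours of a dose was 0.15 on the log2 scale, lower than that of most genes on the array, whose median was 0.31.

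Otx2, the gene of the forebrain and midbrain that also marks granule neuron precursors of the posterior cerebellum, mostly lay on different sides of vehicle at the 2 doses. At 160 mg/kg it ran from 4.5 through a median of 336.9 to 717.8, and at 40 mg/kg from 388.0 through 497.6 to 851.7. The vehicle tumours had 461.0, 452.7 and 407.2. At 160 mg/kg 6 tumours were below all vehicle tumours and 2 above, whereas at 40 mg/kg 7 were above and 1 below. The log2 difference from vehicle was -0.96 (SE 0.86) at 160 mg/kg and 0.28 (SE 0.86) at 40 mg/kg.

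The low end of Otx2 was 160 mg/kg tumour 2, the array that also stood apart in general and in Atoh1. The next lowest 160 mg/kg tumour had 179.8. Without tumour 2 the difference of 160 mg/kg from vehicle was -0.24, and that of both doses together was 0.02, against -0.34 with it. The same tumour had the lowest En1, Meis1 and Barhl2 of its dose group, at 13.1, 296.5 and 27.7. En2 in that tumour was 338.3, within the vehicle range, and Uncx was 121.1.

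Lhx1 and Lhx9 belong to the LIM homeobox class. Lhx1, known from Purkinje cells of the cerebellum and from spinal interneurons, ran from 301.9 through a median of 563.9 to 883.3 at 160 mg/kg and from 335.8 through 494.2 to 701.8 at 40 mg/kg. The vehicle tumours had 409.2, 360.8 and 394.2. Of 16 resistant tumours 11 lay above all vehicle tumours and 3 below. The log2 difference from vehicle was 0.47 (SE 0.27) at 160 mg/kg and 0.30 (SE 0.27) at 40 mg/kg, and the second probe set of the gene followed the first across resistant tumours (r = 0.87, n = 16, given as a description).

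Lhx9, expressed in early neurons from the rhombic lip that enter the cerebellar nuclei, was high in few tumours. It ran from 4.7 through a median of 27.5 to 246.4 at 160 mg/kg and from 4.9 through 10.95 to 182.7 at 40 mg/kg, with 25.0, 14 and 9.9 in vehicle tumours. The high values belonged to 160 mg/kg tumours 1 and 4, with 164.8 and 246.4, and to 40 mg/kg tumour 7, with 182.7. All 4 Lhx9 probe sets were highest in these same tumours, as the plot of Lhx9 probe sets shows, and their pairwise r across resistant tumours ran from 0.54 to 0.97. The difference of 40 mg/kg from vehicle was 0.21 (SE 0.94) on the log2 scale and -0.25 without tumour 7, while that of 160 mg/kg from vehicle was 0.96 (SE 0.94).

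**Figure D2:**
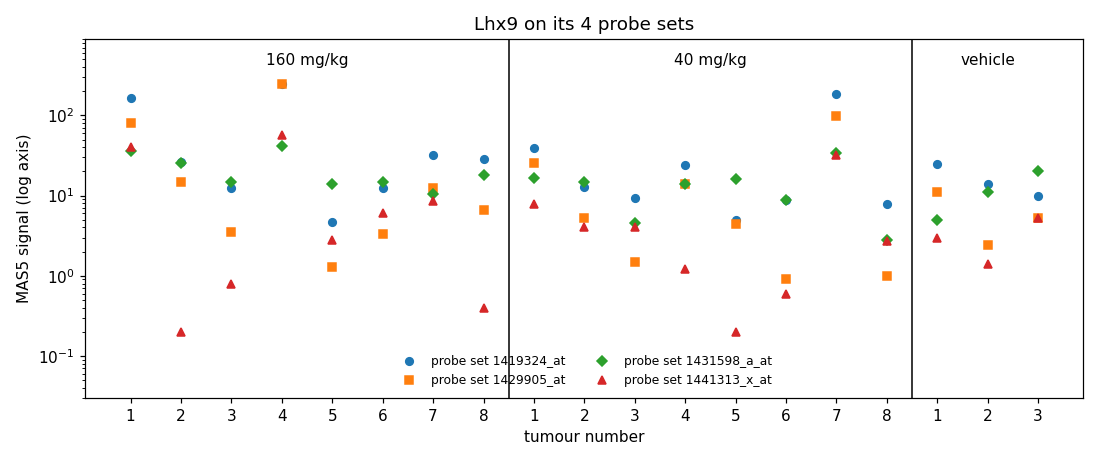
MAS5 signal (log axis) of the 4 Lhx9 probe sets in each tumour, with 160 mg/kg tumours at the left, 40 mg/kg tumours in the middle and vehicle tumours at the right, and 1 symbol per probe set. On the probe set with the highest mean the peaks are 164.8 and 246.4 in 160 mg/kg tumours 1 and 4 and 182.7 in 40 mg/kg tumour 7, and the other 3 probe sets are highest in the same tumours.

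Meis1 and Meis2 encode TALE-class homeodomain proteins that bind DNA together with Pbx and Hox proteins, and Meis1 is known from granule neuron precursors. Meis1 ran from 296.5 through a median of 621.0 to 970.0 at 160 mg/kg and from 475.2 through 588.7 to 806.5 at 40 mg/kg. The vehicle tumours had 830.4, 812.7 and 914.5. All 8 tumours at 40 mg/kg lay below all vehicle tumours, as did 6 of 8 at 160 mg/kg, with 1 above. The log2 difference from vehicle was -0.50 (SE 0.26) at 160 mg/kg and -0.48 (SE 0.26) at 40 mg/kg.

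Meis1 was the 1 gene of 9 whose groups did not overlap in the comparison of 40 mg/kg with vehicle, in which 6.29% of all genes lay wholly below vehicle and 5.03% wholly above. In the other comparisons with vehicle 0 of 9 were without overlap, against 5.2% of all genes wholly below and 3.75% wholly above for 160 mg/kg. For both doses together the shares of all genes were 2.53% and 1.99%. The 3 Meis1 probe sets moved together across resistant tumours, with pairwise r from 0.81 to 0.94. On the dimmest of them the 40 mg/kg tumours overlapped vehicle, with a highest signal of 82.1 against a lowest of 79.6 in vehicle tumours. There 7 of 8 tumours at 40 mg/kg and 4 of 8 at 160 mg/kg lay below all vehicle tumours. Meis2 signals on its brightest probe set ran from 0.9 to 15.9 at 160 mg/kg, from 4.3 to 17.2 at 40 mg/kg and from 1.1 to 19.4 in vehicle tumours, all below the 40th percentile of their array.

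Pax3, which acts in the dorsal neural tube, the neural crest and muscle progenitors, was dim, and 1 of its 3 probe sets passed the filter. It ran from 15 through a median of 22.2 to 50.2 at 160 mg/kg and from 11.7 through 21.7 to 31.0 at 40 mg/kg, with 34.2, 30.8 and 28.1 in vehicle tumours. Of 16 resistant tumours 12 lay below all vehicle tumours and 2 above. The log2 difference from vehicle was -0.30 (SE 0.32) at 160 mg/kg and -0.55 (SE 0.32) at 40 mg/kg.

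Markers of other cells in which Pax3 acts were measured beside it. The summed signal of neural crest and Schwann markers ran from 328 to 1411 at 160 mg/kg and from 806 to 2160 at 40 mg/kg, against 816 to 1483 in vehicle tumours, with the crest genes Foxd3 and Tfap2b below the filter. Skeletal muscle markers summed to between 181 and 6530 at 160 mg/kg and between 192 and 16200 at 40 mg/kg, against 677 to 2817 in vehicle tumours, and Pax7, of muscle progenitors, did not pass the filter. Both ranges overlapped those of the vehicle tumours. Their part in the Pax3 values was not tested.

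Barhl2, a Bar-class gene switched on by Atoh1 in dorsal interneurons, ran from 27.7 through a median of 65.5 to 135.9 at 160 mg/kg and from 29.2 through 45.9 to 63.1 at 40 mg/kg. The vehicle tumours had 56.6, 54.6 and 59.2. At 160 mg/kg 5 tumours lay above all vehicle tumours and 2 below, whereas at 40 mg/kg 1 lay above and 7 below. The log2 difference from vehicle was 0.16 (SE 0.31) at 160 mg/kg, or 0.33 without tumour 2, and -0.32 (SE 0.31) at 40 mg/kg.

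Over the 9 genes, the median log2 difference was 0.16 for 160 mg/kg minus vehicle and 0.21 for 40 mg/kg minus vehicle, where the medians over all genes were -0.07 and -0.05. In each comparison 6 genes had a positive and 3 a negative difference. The plot of group differences, with 1 probe set per gene, shows Uncx alone more than 1 log2 unit from vehicle. Lhx9 at 0.96 and Otx2 at -0.96 came close at 160 mg/kg. Another Lhx9 probe set that passed the filter gave 1.06 (SE 1.1) there. The errors in the plot were widest for Lhx9, Uncx and Otx2.

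**Figure D3:**
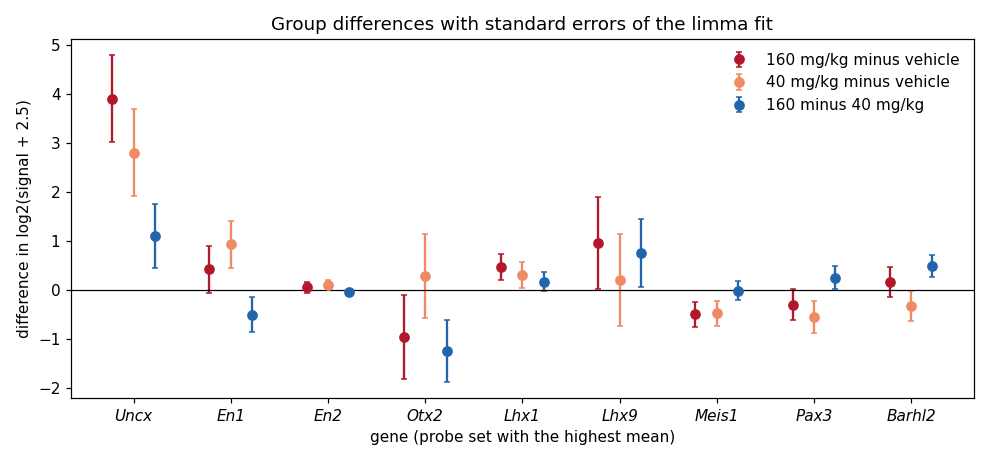
Difference in log2(signal + 2.5) of 9 homeobox genes for 160 mg/kg minus vehicle, 40 mg/kg minus vehicle and 160 minus 40 mg/kg, with bars of 1 standard error from the limma fit. Uncx is at 3.90 and 2.80 against vehicle, and the differences of En2 from vehicle are 0.05 and 0.10.

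The comparison of 160 with 40 mg/kg did not choose the genes other than Uncx, so 8 of them were tested there with limma, adjusted over all probe sets that passed the filter. Called were 0 of the 8, as was 0% of all genes. An unadjusted limma p under 0.05 was found for 1 of the 8, Barhl2, beside 997 of all 13454 genes. Barhl2 was higher at 160 mg/kg by 0.48 on the log2 scale (SE 0.23, 95% interval 0.01 to 0.96, limma adjusted p = 0.722), and by 0.65 without 160 mg/kg tumour 2. The 160 mg/kg tumours averaged 70.1 ± 32.9 and the 40 mg/kg tumours 45.9 ± 9.74 (SD, n = 8 each), with overlapping ranges. The dose groups overlapped in all 9 genes, Uncx included, and 0.0149% of all genes lay wholly lower at 160 mg/kg.

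Otx2 had a difference of -1.24 for 160 minus 40 mg/kg (SE 0.63, 95% interval -2.55 to 0.08, limma adjusted p = 0.748), and -0.52 without 160 mg/kg tumour 2. Lhx9 had 0.75 (95% interval -0.69 to 2.20, limma adjusted p = 0.873) and En1 -0.51 (95% interval -1.24 to 0.23, limma adjusted p = 0.822). These intervals leave room for changes of over 1 log2 unit in 1 direction.

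For Pax3 the difference between doses was 0.25 (95% interval -0.24 to 0.75, limma adjusted p = 0.876), for Lhx1 0.17 (95% interval -0.24 to 0.58, limma adjusted p = 0.903) and for Meis1 -0.02 (95% interval -0.41 to 0.38, limma adjusted p = 0.989). En2 had the narrowest interval, -0.22 to 0.12 around -0.05 (limma adjusted p = 0.931). A p above the threshold does not show that the doses acted alike, and the intervals give the sizes that remain possible.

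Among resistant tumours the genes differed widely in spread. The SD within dose groups, on the log2 scale, was 1.64 for Lhx9, 1.52 for Otx2 and 1.51 for Uncx, each above that of at least 99% of the 13454 genes. En1 followed with 0.83. Barhl2, Pax3, Lhx1 and Meis1 lay between 0.44 and 0.51, and En2 was at 0.15. The heat map shows the tumours that carry this spread.

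**Figure D4:**
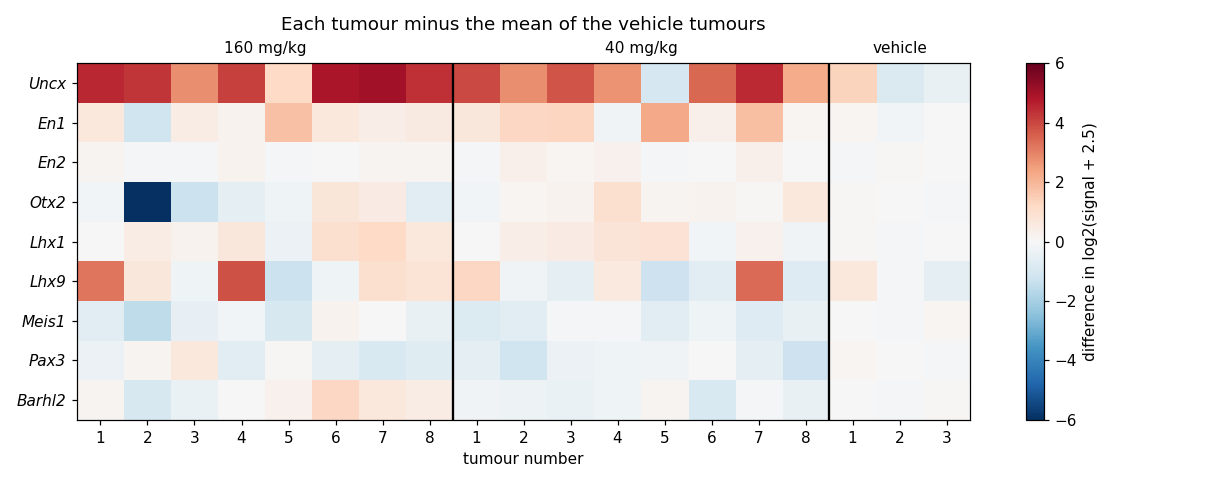
Log2(signal + 2.5) of 9 homeobox genes in each tumour minus the mean of the 3 vehicle tumours, with 160 mg/kg tumours at the left, 40 mg/kg tumours in the middle and vehicle tumours at the right. Uncx is high in most resistant tumours and low in tumour 5 of each dose, Otx2 is at its lowest in 160 mg/kg tumour 2, and Lhx9 is high in 160 mg/kg tumours 1 and 4 and 40 mg/kg tumour 7.

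Correlations between the genes were tested over the 16 resistant tumours, with 36 pairs, 100000 permutations and Benjamini-Hochberg adjustment over the pairs. None of the 36 passed, and 5 had an unadjusted p under 0.05. The strongest was Otx2 with Meis1 (Pearson's r = 0.71, permutation p = 0.00399, adjusted p = 0.144; Spearman's rho = 0.66). Its r was 0.82 within 160 mg/kg, or 0.54 without tumour 2, and 0.70 within 40 mg/kg. Over both doses r was 0.50 without the 2 tumours farthest from the median of Otx2 and 0.42 without 160 mg/kg tumour 2. The pooled r thus rests in part on that tumour.

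En2 with Lhx9 had r = 0.62 (permutation p = 0.01, adjusted p = 0.181; Spearman's rho = 0.62), with r = 0.66 when the 2 tumours farthest in En2 were left out. Within 160 mg/kg r was 0.86 (n = 8, exact permutation p = 0.000397, adjusted p = 0.013) and 0.89 without tumour 2, and within 40 mg/kg it was 0.55. Otx2 with Barhl2 had r = 0.85 within 160 mg/kg (n = 8, exact permutation p = 0.000719, adjusted p = 0.013), 0.88 without tumour 2, and r = -0.14 within 40 mg/kg. Over both doses the r of Otx2 with Barhl2 was 0.44, and 0.12 without 160 mg/kg tumour 2. These were the 2 pairs that passed within 160 mg/kg, and 0 passed within 40 mg/kg, but the difference between doses was not tested.

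Uncx with Lhx9 had r = 0.59 (permutation adjusted p = 0.182) and Spearman's rho = 0.71 (permutation adjusted p = 0.0958). Uncx with En1 had r = -0.48 (permutation adjusted p = 0.27) and Spearman's rho = -0.11, and r was 0.11 without tumour 5 of each dose, so this relation rests on those tumours. In tumour 5 at 160 mg/kg Uncx was 12.4 and En1 115.7, and in tumour 5 at 40 mg/kg Uncx was 0.7 and En1 165.4. Skeletal muscle markers summed to 265 in the first of these and to 16200 in the second, the highest of all resistant tumours.

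The genes whose signal was most like that of Uncx over the 16 resistant tumours were ranked among 12745 genes with a regular symbol, and the values are descriptions without a test. They were Ski, a corepressor of TGF-beta signalling (r = 0.92), Ankle2, of nuclear envelope reassembly (r = 0.90), the POU homeobox gene Pou4f1 of sensory neurons (r = 0.85), Gnptab, which tags lysosomal enzymes (r = 0.85), and Islr (r = 0.84). Tumour 5 of each dose carried much of this likeness. Without the 2 tumours farthest from the median of Uncx, r was 0.70 for Ski, 0.66 for Ankle2, 0.39 for Pou4f1, 0.67 for Gnptab and 0.74 for Islr. Pou4f1 was at 138.6 in 160 mg/kg tumour 5 and at 87.3 in 40 mg/kg tumour 5, the lowest of each dose group, against 428.5 to 513.7 in vehicle tumours.

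For Otx2 the most alike were Asah1, a lysosomal ceramidase (r = 0.97), and Cog2, of the Golgi (r = 0.96), and without the 2 farthest tumours r was 0.61 and 0.49. For Meis1 they were Sfrp2, a secreted Wnt modulator (r = 0.85), and Barhl1 (r = 0.84). Lhx9 was most like Prkar2b, a regulatory subunit of protein kinase A (r = 0.84), and Mras (r = 0.79), and Lhx1 most like the kinase gene Tnik and Plppr1 (r = 0.81 each). The remaining genes had r between 0.76 and 0.85 with their nearest, which were Ndufs8 and Rnaseh2c for En1, Rchy1 and Atxn7l3b for En2, Zwilch and Sdhd for Pax3, and Nmnat1 and Sf3b3 for Barhl2.

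A list of 168 further homeobox genes gives the setting. Of these, 147 were in the annotation and 81 passed the filter, among them paired-type, LIM, TALE, Bar and NK, Hox and POU genes. Between resistant and vehicle tumours 0 rose and 2 fell, which is 2.47% of the 81 beside 2.84% higher and 2.45% lower of all genes. An unadjusted limma p under 0.05 was found for 19 of the 81, beside 3137 of all 13454 genes. The median log2 difference of the 81 was -0.25 beside -0.06 over all genes. The genes that fell were Pou3f2 and Tgif2. The count of 0 that rose did not hold under every setting: in 8 of 30 alternatives at least 1 rose, among them quantile normalization, a pseudocount of 1 and the filter at the 60th percentile with 1 each, and array weights with 5. Isl1, a LIM gene of motor and sensory neurons, lay close to the threshold, with a log2 difference of 2.81 over both doses (SE 0.81, limma adjusted p = 0.0507) and signals above all vehicle tumours in 14 of 16 resistant tumours.

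Pou3f2, a POU factor of neural progenitors and migrating neurons, averaged 76.9 ± 27.6 (SD, n = 8) in the 160 mg/kg tumours and 102 ± 28.7 (SD, n = 8) in the 40 mg/kg tumours, against 207 ± 58.5 in vehicle tumours (SD, n = 3). All 16 resistant tumours lay below all vehicle tumours. The log2 difference over both doses was -1.24 (SE 0.27, limma adjusted p = 0.0137), and that of 160 mg/kg was -1.46 (SE 0.29, limma adjusted p = 0.00869). The call over both doses was lost without vehicle tumour 1 and without vehicle tumour 3.

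Tgif2, a TALE-class repressor in TGF-beta signalling, averaged 444 ± 86.2 (SD, n = 8) in the 160 mg/kg tumours and 478 ± 109 (SD, n = 8) in the 40 mg/kg tumours, against 702 ± 56.8 in vehicle tumours (SD, n = 3), with all 16 resistant tumours below. Its log2 difference was -0.63 over both doses (SE 0.17, limma adjusted p = 0.0423), and the call held in 11 of 19 fits that each left out 1 tumour, and in 0 of the 3 that left out a vehicle tumour. At 160 mg/kg the same genes, Pou3f2 and Tgif2, fell and 0 rose, but at least 1 rose in 7 of 31 alternatives. At 40 mg/kg, where 1.7% of all genes were higher and 0.847% lower, 0 of the 81 were called by limma. An unadjusted limma p under 0.05 was found there for 16 of the 81, beside 2820 of all 13454 genes. The differences at 40 mg/kg were -1.02 for Pou3f2 (limma adjusted p = 0.0723), -0.58 for Tgif2 (limma adjusted p = 0.0985) and 2.73 for Isl1 (limma adjusted p = 0.0975).

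Between 160 and 40 mg/kg 0 of the 81 further homeobox genes were called by limma. An unadjusted limma p under 0.05 was found for 6 of them, beside 997 of all 13454 genes. The smallest p belonged to Irx2, Pax6 and Pitx3, with differences of -0.41, -0.58 and -0.68 (limma adjusted p = 0.674 each). Among genes close to the 10 in role, the granule lineage gene Barhl1 differed from vehicle by -0.59 over both doses (limma adjusted p = 0.565) and Lhx2 by -0.42 (limma adjusted p = 0.177). Pax6, of granule neuron precursors, differed by 0.40 (limma adjusted p = 0.415). Gbx2, which sets the hindbrain side of the border with Otx2, and Lmx1a of the roof plate did not pass the filter, and Pax2 was not analysed here.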

How the data were processed

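The values used are microarray intensities on a linear scale that the authors computed with MAS5 per the submitters' processing notes. MAS5 subtracts background and scales every array by itself, to a target that no source used here states. The table has 45101 probe sets, named through the annotation of the full-genome mouse array, while the series text names a smaller version of it. Of these, 64 were controls, and 34945 of the others had 1 gene symbol.

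Intensities were tested as log2(signal + 2.5), the pseudocount being the 10th percentile of all values. A probe set was kept if it exceeded the 40th percentile on 3 or more arrays, giving 31143 probe sets and 13454 genes. A single limma fit (version 3.58.1, lmFit and eBayes with variance trend) of 3 group means had 16 residual degrees of freedom, with two-sided Benjamini-Hochberg adjusted p-values. It was first tested on simulated data. Correlations used 100000 permutations, or exact permutation within doses of 8.

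The 10 genes and all lists were chosen with earlier results of these data known. Named genes are all of the 10, the 5 genes most like Uncx and the 2 most like each other gene, and further homeobox genes called, or the 3 with the smallest p where none was; Atoh1 and single markers were named after their values were seen. Gbx2, Pax2, Pax6, Barhl1, Lhx2 and Lmx1a were named in any case. No scan date or batch was used, so a batch could not be tested. Promoters are RefSeq's, build GRCm38.p6. Alternatives were quantile normalization, subtracted array medians, other pseudocounts and filters, no variance trend, array weights, a replicate block, averaged probe sets, fits of 2 groups, and leaving out each array.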

Additional observations from a re-analysis of the deposited data

Results flagged for a closer look

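Uncx was at 0.7 in 40 mg/kg tumour 5, whereas the nearest of the other 7 tumours of that dose had 27.5. The gap was 0.59 of the range of the group, above the Dixon limit of 0.526 for 8 samples.

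Otx2 was at 4.5 in 160 mg/kg tumour 2, whereas the nearest of the other 7 tumours of that dose had 179.8, a gap of 0.70 of the range. This array was also among the 2 least like the rest. In all 18 groups of 8 tumours were tested on the log2 scale and 2 stood out, where chance gives about 1 in 20.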

How the results depend on the processing

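With 3 vehicle tumours, comparisons with vehicle rest on few arrays. The count of homeobox genes called, besides the 10, was 2 for both doses against vehicle. It became 1 with array medians subtracted, 1 with no variance trend, 20 with array weights (5 higher and 15 lower), and 0 without 160 mg/kg tumour 2 and vehicle tumour 3, a choice made after seeing the data. For 160 mg/kg against vehicle the count of 2 became 1, 1, 14 and 0 under these settings in the same order. For 40 mg/kg against vehicle the count of 0 became 1 with no filter, 15 with array weights, 1 with averaged probe sets and 1 with the compared groups alone. Genes that rose, 0 as reported, were found in 8 of 30 alternatives for both doses (4 of them leaving out 1 tumour, such as vehicle tumour 1, with 1 higher and 0 lower), in 7 of 31 for 160 mg/kg and in 2 of 31 for 40 mg/kg. Leaving out 1 tumour at a time gave 0 to 3 for both doses, 0 to 4 for 160 mg/kg and 0 to 2 for 40 mg/kg. For 160 against 40 mg/kg the counts were 0 in all 31 alternatives, among the 8 tested genes and among the further homeobox genes. Of the 36 pairs 0 passed in each leave-one-out set, and 2 within 160 mg/kg alone. The cause of these changes was not tested.

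Replicate numbers recur across groups, and the labels do not say what they mean. The deviations of same-numbered tumours from their group means had correlations from -0.13 to 0.09 in 14 pairs, so no pairing by number was seen in these values. With the replicate number as a block the counts were 2 for both doses, 4 for 160 mg/kg, 1 for 40 mg/kg and 0 between doses, and the Otx2 difference of 40 mg/kg from vehicle was -0.59. Of 1103 alternative values of the differences of the 9 genes, 1102 counted as unchanged. For Uncx and for differences from vehicle this meant a move smaller than the spread between tumours. For the other genes between doses it meant only that the gene stayed not called. Signs turned for some differences. These were Otx2 over both doses (0.02 without 160 mg/kg tumour 2) and at 40 mg/kg (-0.59 with the block). Lhx9 at 40 mg/kg also turned (-0.25 without tumour 7). The differences that turned also included Barhl2 over both doses (0.03 at most) and at 160 mg/kg (-0.12 with the block). Between doses they were En2 (0.01 with array medians subtracted) and Meis1, in 10 of 31 alternatives.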
